A study of Mus musculus with 12 samples.

Results

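The antiviral interferon-stimulated genes were followed over 12 Mouse Gene 2.0 ST arrays of TSEC, a mouse endothelial line that was immortalized from liver sinusoids. The set was given as 45 gene symbols, and a transcript of the array was counted when its annotation named exactly 1 of them, under its present symbol or an alias. Of these genes, 40 had a transcript of their own, among 13556 genes that did, and where a gene had several the one of highest mean stood for it. Mx1, Mx2 and Ifi44 had no transcript in the table used here, Oas1a shared its transcript with another gene and so did Dtx3l, and these 5 were not analysed here. There were 4 treatment groups of 3 arrays: cells in medium alone (Media), cells given 0.66 mM oleic acid and 0.33 mM palmitic acid (FFA), 30 μM INT-767, which activates FXR and TGR5 as bile acids do, and the fatty acids together with INT-767 (FFA+INT-767), each for 8 hours by the labels. The study's methods give another dose of oleic acid and a longer time, and which applies is not known. The arrays carry replicate numbers 1 to 3 within each treatment. TSEC is 1 line, and the arrays are called triplicate wells in the study and biological replicates in the labels, so that p-values here cover the spread among these arrays only, part of which may be technical.

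Cells that sense viral RNA or DNA release type I interferon, which binds its receptor on the same or neighbouring cells and activates a transcription factor complex that holds STAT2 and IRF9. That complex binds the interferon-stimulated response element (ISRE) and switches on the genes described here. They include the sensors and transcription factors that keep the response going, enzymes that degrade or edit viral RNA, proteins that block viral entry, translation or release, and USP18, which turns the receptor signal off. Liver sinusoidal endothelial cells line the hepatic capillaries and meet circulating virus early.

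The deposited log2 expression values had array medians of 5.76 to 5.87. Of the 40 genes, 35 were above 4.5, the level over which the study called a gene present, in all 12 arrays and 5 were not. The 5 were Ddx60, Oas2, Oas3, Trim30a and Epsti1. Values of different genes come from different probes and are not set against each other. The labelled cell type could be checked only in part: 8 of 14 endothelial markers and 4 of 12 sinusoidal markers had a transcript, and the defining markers Pecam1, Cdh5, Stab1, Stab2 and Lyve1 were not among those used. The table holds only transcripts above 4.5 in at least 1 array, so a gene without one may have been below that level throughout. Of the markers with a transcript, 5 endothelial and 3 sinusoidal ones had a mean above 4.5, as had 7 fibroblast and stellate cell markers. In 1 replicate number the treatment labels and the response to fatty acids went against each other. Angptl4, a PPAR target and lipase inhibitor, read 8.91, 8.08 and 8.26 in Media replicates 1, 2 and 3, 10.34, 8.23 and 10.64 in FFA, 8.24, 10.43 and 7.76 in INT-767, and 10.21, 10.24 and 10.49 in FFA+INT-767. The array labelled FFA replicate 2 was thus at the level of Media, and the array labelled INT-767 replicate 2 at the level of arrays with FFA. Over 16 PPAR target genes the median of FFA minus Media was 0.56, 0.02 and 0.67 in replicates 1, 2 and 3, and that of INT-767 minus Media was -0.15, 0.64 and -0.20. The labels were kept as given, and the set's median in each treatment comparison below is also given over replicate numbers 1 and 3 alone.

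The sequences before the start of the genes were searched for the element through which interferon acts. In RefSeq promoter windows of GRCm38.p6, which are 300 bases long and run from 250 before each start to 50 after it, the ISRE core GAAANNGAAA was sought on both strands (TTTCNNTTTC on the other). It was present in 14 of the 35 members that had a window (40%), and in 15 of 44 member windows (34.1%), against 1131 of all 32851 windows (3.44%). With 1 base between the repeats in place of NN the share was 10 of 35 members (28.6%), against 3.17% of all windows. A match describes letters in a window and not a bound site.

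The following stretches are shown because these 6 genes are among those whose values are described below and their core lies before the start. They are printed in gene orientation, with the ISRE core in capitals and overlapping cores run together. They lie at chr4:156200855-156200916 on the minus strand (Isg15, first capital 78 bases before the start), chr19:34640765-34640833 on the plus strand (Ifit1, 104 bases), chr12:26456543-26456592 on the minus strand (Rsad2, 120 bases), chr8:61928014-61928086 on the plus strand (Ddx60, 53 bases), chr10:128270256-128270305 on the plus strand (Stat2, 222 bases) and chr8:71537567-71537622 on the minus strand (Bst2, 130 bases).
Isg15: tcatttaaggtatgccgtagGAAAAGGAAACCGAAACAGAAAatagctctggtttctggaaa
Ifit1: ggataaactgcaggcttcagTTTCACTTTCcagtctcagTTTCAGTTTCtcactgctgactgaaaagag
Rsad2: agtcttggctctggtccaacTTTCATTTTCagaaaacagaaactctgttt
Ddx60: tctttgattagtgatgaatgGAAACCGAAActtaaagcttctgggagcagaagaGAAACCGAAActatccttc
Stat2: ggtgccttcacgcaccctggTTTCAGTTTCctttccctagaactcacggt
Bst2: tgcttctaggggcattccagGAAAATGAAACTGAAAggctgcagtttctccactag
Isg15 and Bst2 carry runs of overlapping cores, whereas Ifit1 and Ddx60 carry 2 separate ones. Dhx58, Zbp1, Usp18, Oas1b, Oas2, Mx1, Mx2, Parp9, Parp14 and Rtp4 had no entry.

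Across the 12 arrays most of the genes were high or low in the same arrays. In the array of Media replicate 3, 39 of 40 genes were above their own mean over the 12 arrays, with a median deviation of 0.74, and in INT-767 replicate 3 all 40 were, with a median of 0.56. The same number with fatty acids was low: 3 of 40 were above their mean in FFA replicate 3 (median -0.33) and 4 of 40 in FFA+INT-767 replicate 3 (median -0.29). Replicate 2 was low in every treatment, with 1 to 5 genes above their mean and medians of -0.40 to -0.22. Replicate 1 was at or above the mean in every treatment, with 21 to 32 genes above it and medians of 0.01 to 0.23. In bulk cultures fewer cells with a transcript and less of it per cell cannot be told apart. The median deviation of all transcripts stayed between -0.035 and 0.013 in these arrays.

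**Figure D1:**
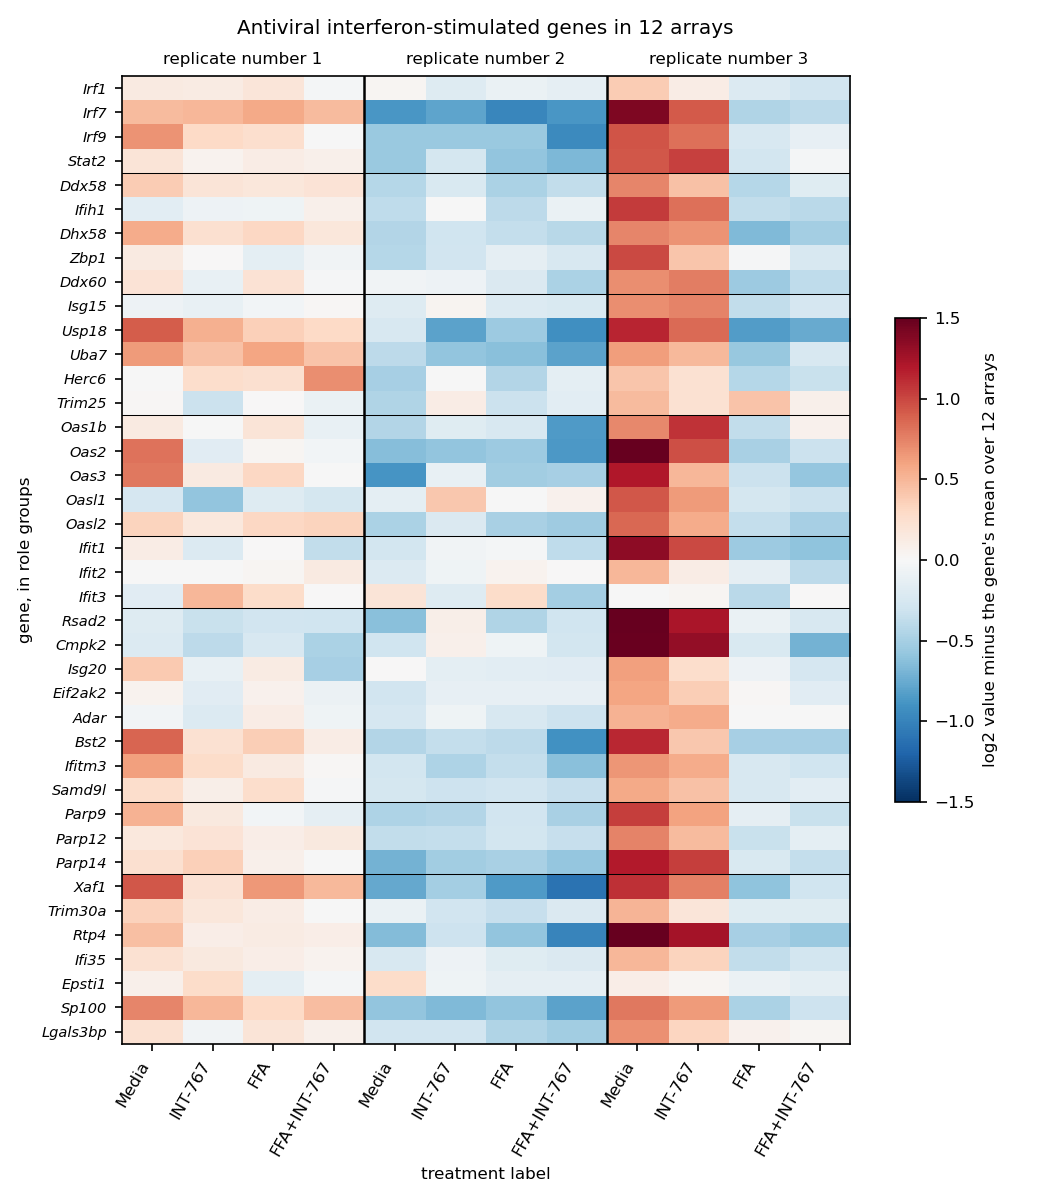
Log2 value of each of 40 antiviral interferon-stimulated genes (rows, in role groups) minus its mean over 12 arrays, by array (columns, grouped by replicate number and named by treatment label). The arrays of replicate number 2 are mostly blue (1 to 5 genes above their mean), and those of number 3 are red without FFA (39 and 40 genes) and blue with FFA (3 and 4 genes).

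Among the transcription factors, Irf7, the factor that amplifies interferon production, had the largest difference between FFA and Media. Irf7 read 8.35, 7.01 and 9.28 in Media replicates 1, 2 and 3, 8.44, 6.90 and 7.43 in FFA, 8.38, 7.09 and 8.80 in INT-767, and 8.35, 7.01 and 7.49 in FFA+INT-767. All 4 arrays of replicate 2 were low, and the treatment groups overlapped. Irf9, the DNA-binding subunit of that complex, read 8.30, 7.06 and 8.57 in Media, 7.87, 7.06 and 7.38 in FFA, 7.92, 7.06 and 8.45 in INT-767, and 7.62, 6.67 and 7.50 in FFA+INT-767. Stat2, its partner, read 8.17, 7.42 and 8.91 in Media, 8.09, 7.39 and 7.70 in FFA, 8.03, 7.72 and 9.00 in INT-767, and 8.06, 7.31 and 7.95 in FFA+INT-767. Both were highest in replicate 3 without fatty acids and lowest in replicate 2. Irf1, a factor induced by interferons and other inflammatory signals, moved least of the 4, with 7.37, 7.26 and 7.61 in Media, 7.41, 7.13 and 7.03 in FFA, 7.36, 7.04 and 7.34 in INT-767, and 7.20, 7.10 and 6.94 in FFA+INT-767.

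Of the 5 nucleic acid sensors, Dhx58 (LGP2), a regulator of the RNA helicases RIG-I and MDA5, differed most between FFA and Media. Dhx58 read 7.92, 6.93 and 8.10 in Media, 7.67, 7.01 and 6.70 in FFA, 7.60, 7.07 and 8.04 in INT-767, and 7.53, 6.95 and 6.85 in FFA+INT-767. Ifih1, which encodes MDA5, a sensor of long double-stranded RNA, read 9.21, 8.99 and 10.42 in Media, 9.31, 8.98 and 9.00 in FFA, 9.29, 9.36 and 10.19 in INT-767, and 9.45, 9.27 and 8.96 in FFA+INT-767. Only the 2 arrays of replicate 3 without FFA exceeded 9.45 for Ifih1. Ddx58, which encodes RIG-I, ran between 9.09 and 10.29, and Zbp1, a sensor of Z-form nucleic acid, and Ddx60, a helicase linked to RIG-I, between 4.64 and 6.06 and between 4.23 and 5.55. All 3 had their highest array in replicate 3 without fatty acids.

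ISG15 is a ubiquitin-like protein attached to newly made proteins, UBA7 is its activating enzyme, HERC6 its main ligase in mice and USP18 the protease that removes it. Usp18 read 10.07, 8.92 and 10.30 in Media, 9.51, 8.61 and 8.32 in FFA, 9.69, 8.35 and 10.01 in INT-767, and 9.46, 8.24 and 8.40 in FFA+INT-767. Each FFA array of Usp18 was below the Media array of its number, most so in replicate 3. Isg15 itself read 6.66, 6.54 and 7.43 in Media, 6.69, 6.53 and 6.36 in FFA, 6.62, 6.77 and 7.48 in INT-767, and 6.75, 6.50 and 6.48 in FFA+INT-767. The 2 high arrays of Isg15 were those of replicate 3 without fatty acids, and the other 10 lay between 6.36 and 6.77. Uba7 followed another course, with 6.21, 5.18 and 6.20 in Media, 6.16, 4.94 and 5.0 in FFA, 6.01, 4.97 and 6.05 in INT-767, and 5.99, 4.77 and 5.33 in FFA+INT-767, so that replicate 1 was about as high as the high arrays of replicate 3. Herc6 ran from 8.48 to 9.67 and Trim25, a ligase that acts on RIG-I, from 8.55 to 9.47.

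In the OAS family, whose enzymes make the second messenger that activates RNase L, Oas2 had the largest difference. Oas2 read 6.13, 4.68 and 7.17 in Media, 5.35, 4.77 and 4.83 in FFA, 5.15, 4.73 and 6.29 in INT-767, and 5.28, 4.46 and 5.0 in FFA+INT-767. Oas1b, Oas3 and the OAS-like genes Oasl1 and Oasl2 had their highest array in replicate 3 without fatty acids too. The IFIT proteins bind viral RNA and block its translation. Ifit1 read 9.57, 9.19 and 10.80 in Media, 9.46, 9.43 and 8.92 in FFA, 9.26, 9.41 and 10.45 in INT-767, and 9.09, 9.08 and 8.86 in FFA+INT-767. For Ifit1, replicate 3 held both the 2 highest and the 2 lowest arrays. Ifit2 ran only from 5.67 to 6.56 and Ifit3 from 4.92 to 5.93, and the highest array of Ifit3 was INT-767 replicate 1.

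Rsad2 encodes viperin, which makes a chain-terminating nucleotide from CTP, and its neighbour Cmpk2 encodes a mitochondrial nucleotide kinase. Rsad2 read 8.31, 7.88 and 10.03 in Media, 8.22, 8.05 and 8.40 in FFA, 8.17, 8.59 and 9.73 in INT-767, and 8.21, 8.21 and 8.26 in FFA+INT-767. Cmpk2 read 8.26, 8.16 and 9.95 in Media, 8.22, 8.40 and 8.24 in FFA, 8.07, 8.54 and 9.78 in INT-767, and 7.99, 8.19 and 7.76 in FFA+INT-767. In both genes the 2 arrays of replicate 3 without fatty acids stood more than 1 log2 unit above the other 10. Bst2 (tetherin), which holds budding virus on the cell, read 8.15, 6.84 and 8.41 in Media, 7.65, 6.89 and 6.78 in FFA, 7.51, 6.92 and 7.69 in INT-767, and 7.39, 6.37 and 6.78 in FFA+INT-767. Ifitm3, which blocks entry from endosomes, read 11.32, 10.43 and 11.36 in Media, 10.83, 10.34 and 10.46 in FFA, 10.98, 10.24 and 11.26 in INT-767, and 10.72, 10.07 and 10.40 in FFA+INT-767. The exonuclease gene Isg20 read 8.57, 8.19 and 8.80 in Media, 8.30, 8.03 and 8.11 in FFA, 8.07, 8.04 and 8.45 in INT-767, and 7.69, 8.01 and 7.93 in FFA+INT-767. All FFA+INT-767 arrays of Isg20 were below all its Media arrays. The double-stranded RNA kinase gene Eif2ak2 (PKR) ran from 8.37 to 9.25, Adar, an RNA editing enzyme, from 7.36 to 8.22, and Samd9l from 6.95 to 7.86.

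Parp9, which acts with DTX3L as a pair, read 6.47, 5.49 and 6.99 in Media, 5.91, 5.66 and 5.82 in FFA, 6.10, 5.51 and 6.56 in INT-767, and 5.82, 5.46 and 5.62 in FFA+INT-767. Parp14 ran from 6.07 to 7.97 and Parp12 from 9.60 to 10.71. Of the remaining members, Rtp4, an inhibitor of viral replication, read 8.49, 7.39 and 9.59 in Media, 8.16, 7.44 and 7.54 in FFA, 8.14, 7.73 and 9.29 in INT-767, and 8.14, 7.05 and 7.48 in FFA+INT-767. Xaf1, a pro-apoptotic partner of XIAP, read 7.02, 5.32 and 7.18 in Media, 6.73, 5.23 and 5.48 in FFA, 6.30, 5.58 and 6.84 in INT-767, and 6.57, 4.98 and 5.79 in FFA+INT-767. The nuclear body gene Sp100 read 8.17, 6.85 and 8.23 in Media, 7.74, 6.84 and 6.96 in FFA, 7.94, 6.78 and 8.07 in INT-767, and 7.90, 6.63 and 7.13 in FFA+INT-767. Xaf1 and Sp100 resembled Uba7 in that replicate 1 was high under all 4 treatments. A second transcript of Sp100 ran the same way, with 7.83, 6.50 and 7.68 in Media and 7.50, 6.63 and 6.73 in FFA. Lgals3bp, a secreted glycoprotein, read 10.12, 9.61 and 10.58 in Media, 10.09, 9.44 and 9.96 in FFA, 9.84, 9.61 and 10.22 in INT-767, and 9.97, 9.37 and 9.93 in FFA+INT-767. Lgals3bp was lowest in replicate 2 under every treatment. In replicate 3 a second transcript of Lgals3bp read 7.91 in Media, 7.45 in FFA, 8.02 in INT-767 and 7.52 in FFA+INT-767. Trim30a read 4.40, 3.96 and 4.57 in Media, 4.17, 3.71 and 3.87 in FFA, 4.23, 3.77 and 4.24 in INT-767, and 4.05, 3.84 and 3.87 in FFA+INT-767. Epsti1 read 4.33, 4.54 and 4.36 in Media, 4.11, 4.13 and 4.17 in FFA, 4.53, 4.19 and 4.29 in INT-767, and 4.23, 4.12 and 4.11 in FFA+INT-767. It exceeded 4.5, the level over which a gene was called present, only in Media replicate 2 and INT-767 replicate 1. Trim30a did so only in Media replicate 3. Ifi35 ran from 8.66 to 9.53. In replicate 3 a second transcript of Ifi35 read 5.08 in Media, 5.06 in FFA, 5.48 in INT-767 and 4.90 in FFA+INT-767.

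**Figure D2:**
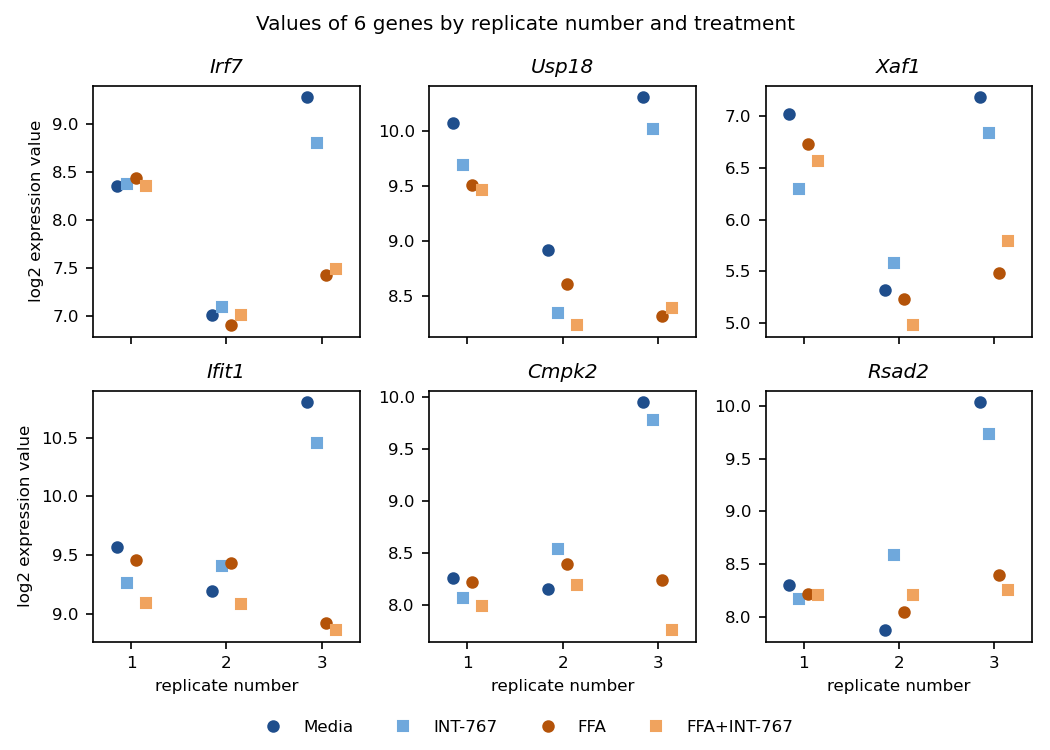
Log2 expression value (vertical axis, 1 scale per gene) of Irf7, Usp18, Xaf1, Ifit1, Cmpk2 and Rsad2 in each of 12 arrays, by replicate number (horizontal axis) and treatment (colour and symbol). In replicate 3 the 2 arrays without FFA (blue) lie above the 2 with FFA (orange), while Irf7, Usp18 and Xaf1 are also high in replicate 1 and Cmpk2 and Rsad2 are not.

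The first treatment question was whether fatty acids alone changed these genes. By limma's moderated test with Benjamini-Hochberg adjustment over all transcripts, 0 of 40 passed an adjusted p of 0.05, as did 0 of 24838 transcripts (0%), and 1 of 40 had an unadjusted p under 0.05, against 2.68% of all transcripts. In direction, 38 of 40 genes were lower in FFA, with a median log2 difference of -0.44 against 0.0037 over all transcripts. The gene with the unadjusted p under 0.05 was Epsti1, at 4.41 ± 0.11 with Media and 4.13 ± 0.03 with FFA (SD, n = 3 arrays), both means below 4.5. Its log2 difference was -0.28 (standard error 0.11, limma adjusted p = 1). Usp18 was at 9.76 ± 0.74 and 8.81 ± 0.62, a difference of -0.95 (standard error 0.44), and Oas2 at 5.99 ± 1.25 and 4.98 ± 0.32, the largest difference of the set at -1.01 (standard error 0.58). Isg20 (-0.38, standard error 0.18) and Trim30a (-0.39, standard error 0.20) had the next smallest p. Against the spread between replicates and after adjustment over all transcripts, none of these differences held up. With the replicate number as a block, 5 of 40 had an unadjusted p under 0.05, against 5.89% of transcripts, and 0 an adjusted one. Over replicate numbers 1 and 3 alone, the median was -0.64, and again 0 passed. There 11 of 40 had an unadjusted p under 0.05 by limma. The share of all transcripts was not computed for these arrays, so that count has no background to be set against. Leaving out Media replicate 3 brought the median to -0.11, and leaving out Media replicate 2 to -0.77.

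INT-767 alone left the set near the level of Media. Of 40 genes, 30 were lower, the median log2 difference was -0.095 (-0.015 over all transcripts), and none had an unadjusted p under 0.05 by limma, against 2.92% of transcripts (adjusted: 0 of 40, and 0% of all). With the block 2 of 40 did, against 8.07%. The smallest p belonged to Isg20 (-0.33, standard error 0.20), Irf1 (-0.17, standard error 0.15), Trim30a (-0.23, standard error 0.21) and Bst2 (-0.43, standard error 0.42), each within 2 standard errors of 0. By replicate number the median of INT-767 minus Media was -0.18, 0.14 and -0.25. The direction of the median rests on single arrays: leaving out Media replicate 3 gave 0.15, leaving out Media replicate 2 gave -0.41, and leaving out INT-767 replicate 3 gave -0.32. Over replicate numbers 1 and 3 alone it was -0.22.

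With both agents against Media, which shares the Media arrays with the comparisons above, 39 of 40 genes were lower with a median of -0.46. At an unadjusted p under 0.05 stood 3 of 40, against 5.38% of transcripts, and 12 of 40 with the block, against 8.83%. The 3 were Isg20, at 7.87 ± 0.17 against 8.52 ± 0.31 (SD, n = 3 arrays; log2 difference -0.65, standard error 0.18), Ddx60 (-0.57, standard error 0.22) and Usp18 (-1.06, standard error 0.45), each at a limma adjusted p of 0.92, so that 0 passed (0% of all transcripts). When both agents were compared with INT-767 alone, 39 of 39 tested genes were lower, with a median of -0.39. Here 1 of 39 had an unadjusted p under 0.05, Oas3 (-0.53, standard error 0.22), against 2.14% of transcripts, and 5 with the block, against 4.72%, and 0 (0% of all) passed an adjusted one. Over replicate numbers 1 and 3 alone the medians of these comparisons were -0.64 and -0.46. Against Media, the median was -0.17 when Media replicate 3 was left out and -0.76 when Media replicate 2 was. Against INT-767, it was -0.15 when INT-767 replicate 3 was left out, -0.62 when INT-767 replicate 2 was, -0.59 when FFA+INT-767 replicate 1 was and -0.25 when FFA+INT-767 replicate 2 was.

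Adding INT-767 to fatty acids moved the set little. The median of FFA+INT-767 against FFA was -0.08, with 28 of 38 tested genes lower, none at an unadjusted p under 0.05 by limma (4.73% of transcripts; 0% adjusted) and 2 with the block (12.1% of transcripts). Over replicate numbers 1 and 3 alone it was -0.057. Its direction turned without FFA replicate 1 (0.057) and without FFA+INT-767 replicate 2 (0.035). The interaction, which asks whether the FFA difference was another in the presence of INT-767, had a median of 0.044, with 0 of 40 genes at an adjusted p (0% of all) or an unadjusted p under 0.05 by limma, against 2.69% of transcripts, and 0 with the block, against 4.91%. Over replicate numbers 1 and 3 alone its median was 0.16, and it was 0.34 without Media replicate 2 and -0.24 without Media replicate 3.

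The genes were then compared between the replicate numbers. In a limma fit of the 12 arrays with treatment as a factor, 10 of 40 genes differed between the replicate numbers at an adjusted p under 0.05, against 20.4% of all transcripts, and 23 of 40 at an unadjusted p, against 35.6%. The count of 10 was near the background share, whereas the direction was not mixed: 38 of 40 were higher in replicate 1 than in replicate 2 (median 0.49, against -0.03 over all transcripts), and 38 of 40 were higher in replicate 3 than in replicate 2 (median 0.55, against -0.027). The 10 were Irf9, Lgals3bp, Uba7, Sp100, Ifitm3, Xaf1, Irf7, Stat2, Trim30a and Bst2. Irf9 was higher than in replicate 2 by 0.97 in replicate 1 and 1.01 in replicate 3 (standard error 0.18, limma adjusted p = 0.013 each), Sp100 by 1.16 and 0.82 (standard error 0.20, adjusted p = 0.0089 and 0.039) and Irf7 by 1.38 and 1.25 (standard error 0.32, adjusted p = 0.025 and 0.043). Uba7 was higher in replicate 1 by 1.13 (standard error 0.19, adjusted p = 0.0073), while its difference of 0.68 in replicate 3 had an adjusted p of 0.056. The median of replicate 3 over replicate 2 was 0.34 with Media replicate 3 left out. The count fell to 4 without Media replicate 2 or without FFA replicate 1, to 5 without FFA+INT-767 replicate 1 and to 6 without FFA replicate 2 or INT-767 replicate 2, and rose to 16 without FFA replicate 3.

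Since replicate 3 was high without fatty acids and low with them, the FFA difference was then taken within each replicate number, a comparison chosen after the values had been seen. One limma model of the 12 arrays held a level for each replicate number with and without FFA and a shift for INT-767, so that each difference rests on 2 arrays against 2. Its p-values measure the scatter between arrays of the same replicate number and FFA state. They leave out the spread of the FFA difference between replicate numbers. In replicate 3 all 40 genes were lower with FFA, by a median of -1.10, and 15 of 40 passed an adjusted p of 0.05, against 34 of 26076 transcripts called lower (0.13%), while 37 had an unadjusted p under 0.05, against 4.12%. In replicate 1 the median was -0.06, with 0 of 40 called (0.00383% of all called lower) and 4 at an unadjusted p (4.88%). In replicate 2, whose labels are in doubt, it was -0.092, with 0 called (0%) and 0 at an unadjusted p by limma (1.97%), and it was 0.011 when the array labelled INT-767 replicate 2 was left out. Whether the FFA difference itself varied with the replicate number was tested by an F test in the same fit: 0 of 40 passed an adjusted p of 0.05 (smallest 0.24; 0% of all) and 34 of 40 an unadjusted one, against 7.78% of transcripts.

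The 15 genes called lower in replicate 3 came from every role group. The log2 difference was -1.80 for Usp18 (standard error 0.16), -1.93 for Rtp4 (0.18), -1.87 for Cmpk2 (0.18), -1.73 for Ifit1 (0.16), -1.58 for Irf7 (0.15), -1.40 for Parp14 (0.11), -1.29 for Dhx58 (0.13) and -1.03 for Isg15 (0.10), each at a limma adjusted p of 0.024. Ifih1 (-1.33), Stat2 (-1.13), Ddx60 (-1.19), Sp100 (-1.11), Parp9 (-1.06) and Ifitm3 (-0.88) had an adjusted p of 0.028, and Oasl2 (-1.13) one of 0.032. Oas2 at -1.82, Rsad2 at -1.55 and Xaf1 at -1.37 did not pass. The smallest differences were those of Trim25 (-0.10), Epsti1 (-0.19) and Ifit3 (-0.21). The count of 15 was not stable under the alternatives: it was 6 over replicate numbers 1 and 3 alone, 0 by the methods' unmoderated test, 1 without INT-767 replicate 3, and 0 without replicate 1 or 3 of Media, any of the FFA or FFA+INT-767 arrays, or INT-767 replicate 1. The median stayed at -1.10 over replicate numbers 1 and 3, but it could not have come out otherwise. With all arrays of replicate 3 present, the shift for INT-767 cancels and its differences use those arrays alone.

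**Figure D3:**
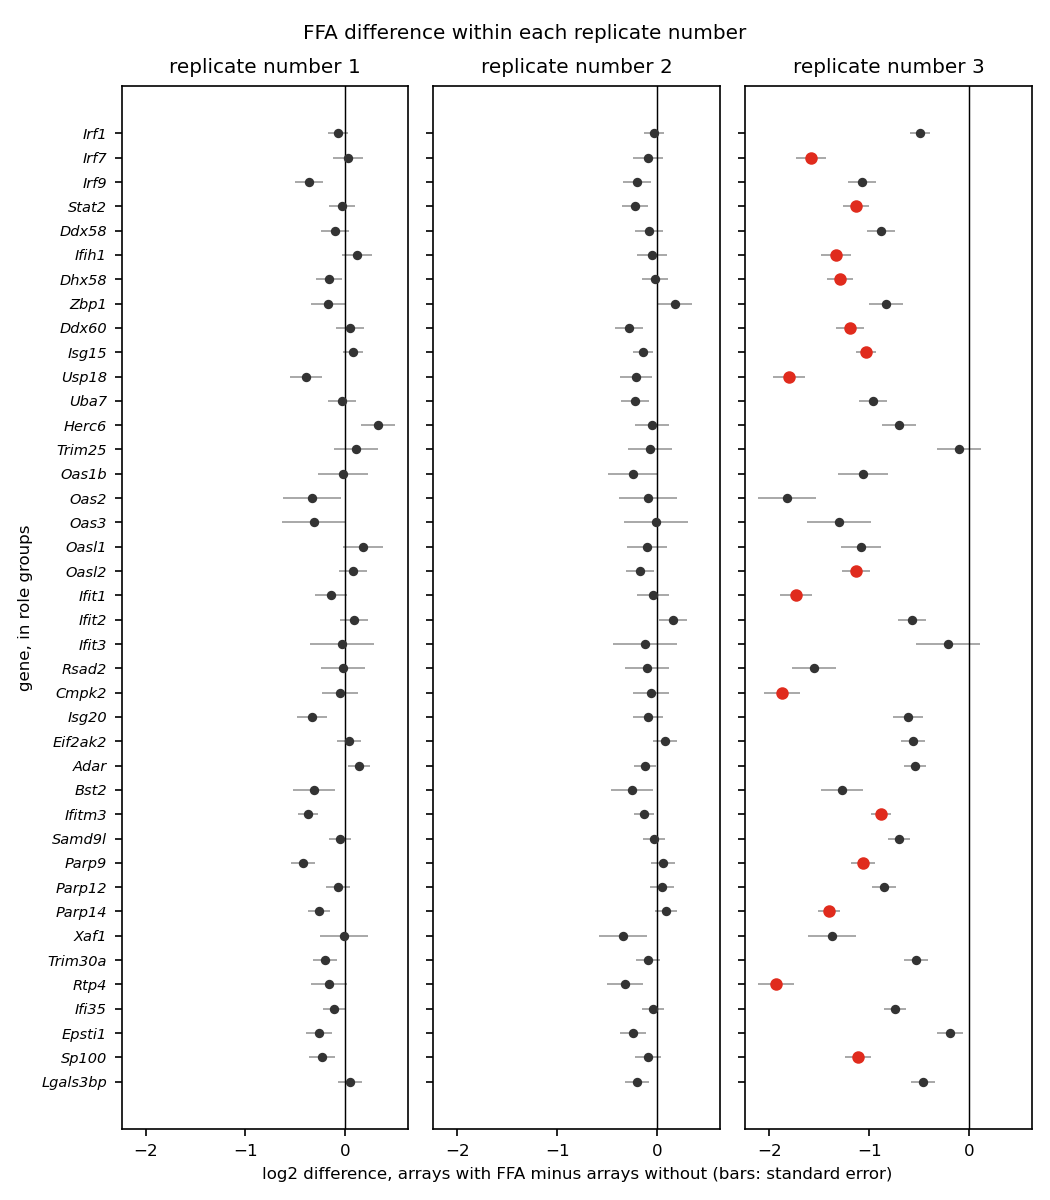
Log2 difference between the 2 arrays with and the 2 arrays without FFA (horizontal axis) for each of 40 genes (rows, in role groups) within replicate numbers 1, 2 and 3, with standard errors from 1 limma fit. Red points passed an adjusted p of 0.05: 15 genes in replicate 3 and none in replicates 1 and 2.

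The same fit gave the replicate differences apart for arrays without and with FFA. Without FFA, 31 of 40 genes were called higher in replicate 3 than in replicate 2 (median 1), against 2.98% of transcripts called higher, and with FFA 0 were (median 0.091; 0.886% of transcripts). For replicate 1 over replicate 2 the counts were 12 of 40 without FFA (median 0.44; 2.99% of transcripts) and 14 of 40 with FFA (median 0.44; 2.58%). Arrays without FFA in replicate 2 include the one labelled INT-767 replicate 2. Over the 40 genes, the differences of replicate 1 from replicate 2 in the arrays without FFA and in those with FFA, which share no array, had a Pearson correlation across genes of 0.88. The same value over all transcripts was not computed, so 0.88 is not shown to be particular to this set. The genes lay along a range, with Irf7 (1.32 and 1.44), Xaf1 (1.21 and 1.54), Sp100 (1.24 and 1.09), Usp18 (1.24 and 1.06), Uba7 (1.04 and 1.22) and Irf9 (1.05 and 0.88) at one end and Cmpk2 (-0.19 and -0.18) and Oasl1 (-0.54 and -0.26) at the other. Rsad2 (0.01 and 0.09), Ifit1 (0.11 and 0.02), Ifih1 (0.08 and 0.25) and Isg15 (-0.01 and 0.21) were near 0. Without FFA, Cmpk2 was lower in replicate 1 than in replicate 3 by -1.70, Rsad2 by -1.64 and Ifit1 by -1.21, whereas Uba7 differed by -0.01 and Sp100 by -0.10. Of the 32 measured genes with a promoter window, the 13 with an ISRE core had a median of 0.17 for replicate 1 over replicate 2 without FFA (-0.01 to 0.96) and the 19 without one a median of 0.37 (-0.54 to 1.32), and for FFA in replicate 3 the medians were -1.13 (-1.73 to -0.21) and -0.74 (-1.87 to -0.10). The ranges overlapped in both.

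**Figure D4:**
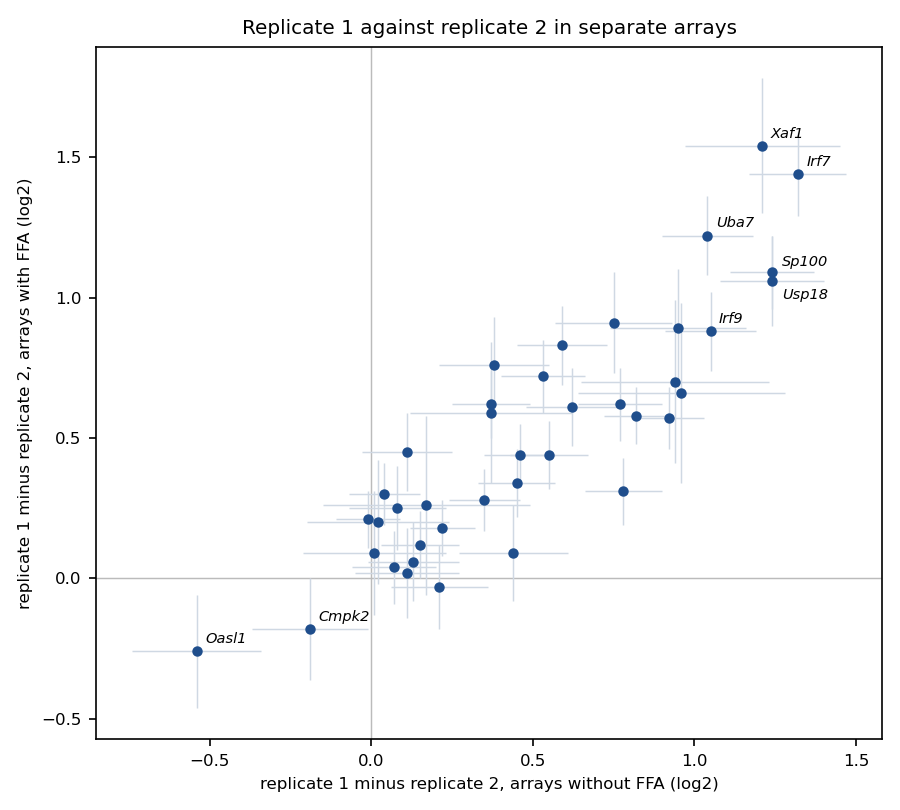
Log2 difference of replicate 1 from replicate 2 for each of 40 genes in the arrays without FFA (horizontal axis) and with FFA (vertical axis), with standard errors. Irf7 and Xaf1 lie at the upper right, above 1 on both axes, and Cmpk2 and Oasl1 below 0 on both.

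The genes upstream of this response were read from lists of its ligands, receptors and inducers. Of 14 interferon genes 6 had a transcript, Ifnb1 and Ifng not among them, and in replicate 3 their median FFA difference was -0.072 with 0 called. Ifna2 (mean 4.44 over the 12 arrays) and Ifnk (4.29) lay below 4.5. As the table had been filtered at that level, the other interferon genes may have been below it in every array. A change in the ligands could thus be read only in part. Of 19 genes of the receptors and JAK-STAT signalling, 17 were measured. Their median in replicate 3 was -0.063, with 0 called, against -1.10 for the antiviral set. Socs3, a feedback inhibitor of cytokine receptors, read 6.23, 6.28 and 6.50 in Media and 6.10, 5.69 and 5.98 in INT-767, a log2 difference of -0.41 (standard error 0.15) with an unadjusted p under 0.05 that did not pass adjustment. The lowest of these arrays was INT-767 replicate 2, whose label is in doubt. Of 21 measured genes of nucleic acid sensing and interferon induction, 11 were lower and 10 higher with FFA in replicate 3 (median -0.019), and 1 was called. It was Ifi204, a DNA sensor that is itself induced by interferon, at 10.93 and 10.56 without FFA and 9.47 and 8.88 with it (-1.57, standard error 0.18, limma adjusted p = 0.028).

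A further list of 50 interferon-stimulated genes outside the set, of which 39 were measured, was read as well. It was chosen with earlier results of these data known, so it gives no independent support. In replicate 3, 38 of 39 were lower with FFA, with a median of -0.37. Called were 4, against 0.13% of transcripts called lower: Apol9b (-2.02, standard error 0.24), the immunity-related GTPases Igtp (-1.63, 0.21) and Irgm1 (-1.33, 0.15), and Ifi27 (-1.06, 0.11). These 4 calls were not recomputed under the alternatives. Apol9b read 10.00 and 9.72 without FFA in replicate 3 and 7.79 and 7.90 with it. In FFA against Media over all arrays the median of this list was -0.20, with 36 of 38 lower and 0 called by limma. At an unadjusted p under 0.05 stood 0, against 2.68% of transcripts, and 2 with the block, against 5.89%. The PPAR targets went the other way in these arrays, with 16 of 16 higher in FFA (median 0.45), led by Fabp4, a fatty acid binding protein (2.08, standard error 0.75). In replicate 3 all 16 were higher with FFA by a median of 0.69, and in replicate 1 by 0.55, where the antiviral genes differed by -0.06. In replicate 2, as labelled, 9 were higher and 7 lower (median 0.0047).

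Markers of other cells were read in the same arrays. Of 10 fibroblast and stellate cell markers, 8 were measured, and their median level per array was 6.13 to 8.37 in replicate 1, 5.17 to 5.52 in replicate 2 and 5.13 to 6.02 in replicate 3. All 8 were higher in replicate 1 than in replicate 2, and 6 of them passed, against 1482 of 26076 transcripts called higher. Of the antiviral genes, Irf7, Xaf1, Sp100 and Uba7 were high in replicate 1 as well, and Cmpk2, Oasl1, Rsad2 and Isg15 were not. Dcn (decorin) read 10.12, 9.50, 9.48 and 8.63 in the 4 arrays of replicate 1, 5.81, 5.73, 5.20 and 4.97 in those of replicate 2, and 8.83, 8.26, 8.38 and 8.43 in those of replicate 3. Dcn was thus high in replicate 3 too, unlike the list, whose median of replicate 3 over replicate 2 was 0.064. With FFA, all 8 fibroblast and stellate cell markers were lower in replicate 1 (median -0.79), where the antiviral genes had a median of -0.06. Of these markers 5 had an unadjusted p under 0.05 by limma, against 4.88% of transcripts lower at that level, and 0 were called. In replicate 3 the median of the markers was -0.034, beside -1.10 for the antiviral genes, and the lowest was Pdgfrb at -1.02 (standard error 0.21). Endothelial markers had medians of 4.84 to 5.25, 4.53 to 4.58 and 4.89 to 5.18 in replicates 1, 2 and 3. In replicate 1, 6 of 8 were higher than in replicate 2 (median 0.41), and 3 were called higher, against the same 1482 transcripts. For replicate 3 over replicate 2, 7 of 8 were higher (median 0.23). There 2 were called higher and 1 lower, against 1150 and 1259 of 26076 transcripts. Of 13 macrophage markers 3 were measured, with medians of 5.91 to 6.52, 6.26 to 6.42 and 6.10 to 6.37, and Adgre1, Csf1r and Ptprc were not among them. Of 8 hepatocyte markers 4 were measured, with medians of 4.23 to 4.64, 4.23 to 4.35 and 4.26 to 4.47 in replicates 1, 2 and 3, and 1 of them, Apoa1, had a mean above 4.5. Apoa1, the main protein of high-density lipoprotein, read 7.64 and 7.06 without FFA and 6.50 and 6.57 with FFA in replicate 3 (-0.82, standard error 0.22, limma adjusted p = 0.34), against 5.12 to 6.13 in replicates 1 and 2. It was high in replicate 3 with and without FFA and passed the test of replicate 3 over replicate 2. Of 7 plasmacytoid dendritic cell markers only 1 was measured, and Siglech was not. The part of other cell types in the results by replicate number was not tested.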

How the data were processed

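The authors made the deposited log2 expression values in Partek 6.6, normalized by GC-RMA per the study's methods and by RMA per the submitters' processing notes. Every one of the 26076 transcripts exceeded 4.5 in at least 1 array, so the table had been filtered. Of these, 14317 carry 1 gene symbol, 1397 several and 10362 none. They were analysed as they stood with limma 3.58.1 (R 4.3.3). Each comparison of treatments used its own 6 arrays, the interaction and the replicate number all 12, by lmFit and eBayes. The study's methods mention no block, so none was used. Transcripts entered a fit if any of its arrays exceeded 4.5. P-values are two-sided and adjusted over all transcripts. Same-numbered arrays shared their deviations from the treatment means (correlation 0.2 to 0.54 in all 18 pairs; -0.45 to 0.05 in 36 other pairs), so fits with the replicate number as a block are given where they changed a count. Values in every array are given for genes with the 4 smallest p for FFA or INT-767, the 6 with the smallest p for the replicate number, the largest FFA difference in each role group, and further genes chosen after their values were seen (Stat2, Ifih1, Isg15, Rsad2 and Cmpk2). Members and lists were chosen with earlier results of these data known. Only 3 arrays per group limit the precision. The scripts were tested on simulated data.

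Alternatives were other filters, scalings, an intensity trend with a robust prior, the methods' unmoderated test, the block, replicate numbers 1 and 3 alone, and each array left out in turn. The FFA comparison within replicate numbers, and its alternatives, were added after the data were seen.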

Additional observations from a re-analysis of the deposited data

How the results depend on the processing

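Of the genes recomputed under the alternatives, which were the named genes of FFA or INT-767 against Media and the 15 called within replicate 3, none changed direction. For the 15, leaving out arrays of replicates 1 or 2 could not change the difference. Those settings therefore say nothing of its direction. For the 5 treatment comparisons and the interaction, 0 genes passed an adjusted p under every one of them, the replicate block included. The direction of the set's median was kept in FFA against Media and in both comparisons of FFA+INT-767 with arrays lacking FFA. With single arrays left out, the median of INT-767 against Media ran from -0.41 to 0.15, that of FFA+INT-767 against FFA from -0.24 to 0.057 (0.035 without FFA+INT-767 replicate 2) and that of the interaction from -0.24 to 0.34. The count of genes that differed by replicate number was 10, fell to 4 under the methods' unmoderated test and ran from 4 to 16 with single arrays left out, and the median of replicate 1 over replicate 2 ran from 0.38 (without FFA replicate 1) to 0.55 (0.39 without Media replicate 2). The 15 calls for FFA within replicate 3 became 6 over replicate numbers 1 and 3 alone, 0 under the unmoderated test and 0 to 16 with single arrays left out. The cause was not tested. The replicate block raised the unadjusted counts of the 5 treatment comparisons as given beside each, left that of the interaction at 0, and changed no call. The number of arrays limits the precision of every value, and the labels of replicate 2 limit every comparison that uses it.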
